A study of Homo sapiens with 24 samples.

Results

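The MYC-transformed PM line was compared with the non-transformed PE line while CHD1 was depleted by hairpin A. Both lines derive from MCF10A, an established human mammary epithelial line that does not form tumours. The libraries were taken by their labels: PM with hairpin A (replicates 1 to 4) and PE with hairpin A (replicates 1 to 4), 8 of the 24 libraries of the series. The other 16 libraries held a hairpin against GFP, which is a control, or a second hairpin against CHD1, called B, in both lines with 4 libraries each. They serve to show levels without hairpin A, such as that of CHD1, and to ask whether the difference between the lines was the same under other hairpins. All 24 libraries entered the fit. All cultures, controls included, were grown in medium with horse serum, EGF, hydrocortisone, cholera toxin and insulin and received doxycycline at 50 ng/ml for 72 h, and poly(A) RNA was sequenced from 200000 cells per sample with a directional kit. The labels do not spell out the letters PE and PM or say how the cells were transformed, whether a line is 1 clone, or how the cultures called biological replicates were separated. P-values therefore measure the spread between these libraries, which may be partly technical.

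MYC is a transcription factor that binds DNA as a dimer with MAX, mostly at the E-box sequence, and is known for raising genes of ribosome assembly, nucleotide synthesis and protein folding. In breast epithelium, high MYC drives growth and is also known to make cells prone to p53 activation and death. CHD1 is a remodelling ATPase that binds histone H3 trimethylated at lysine 4 near the start of active genes and moves nucleosomes there. Because hairpin A was present on both sides of the comparison, its values describe how the lines differed while CHD1 was low, not the effect of losing CHD1.

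The total count lay between 30.8 and 93.3 M per library, and 20820 of 59251 genes passed the filter on low counts and were tested. Between pairs of libraries of different lines the SD of the log2 difference was 0.735 to 0.825, against 0.258 to 0.314 within PE and 0.247 to 0.405 within PM. Replicate 4 of PM stood apart: it had a count for 19514 genes against 22067 to 23916 in the other 7 libraries, 7.07% of its counts came from mitochondrial genes against 4.67% to 5.96%, and 313 of 13814 genes lay over 2-fold from the mean of its group, against 34 to 67 elsewhere. Of the markers of breast epithelium, the keratins KRT18 and KRT8 were abundant in both lines. KRT18 was at 313 CPM in PM and 252 CPM in PE (CPM is the count of a gene per 1 M counts of the TMM-scaled library size). KRT8 was at 349 CPM in PM and 386 CPM in PE, with ranges that overlapped. The epithelial surface markers EPCAM and CDH1 were at 7.23 and 2.12 CPM in PE, far below PM, and KRT19 was below the filter in both. Of the immune markers, PTPRC, CD3E, MS4A1, LYZ and TYROBP were below the filter, the last 3 and CD3E with no count in these 8 libraries. In bulk samples, fewer cells of a type and less RNA per cell cannot be told apart.

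CHD1 itself was low in both lines, with ranges that overlapped, and MYC was higher in PM. CHD1 stood at 30.6, 27.6, 31.7 and 34.3 CPM in replicates 1 to 4 of PM and at 29.3, 28.5, 28.2 and 30.8 CPM in PE. The test did not pass (log2 0.087, SE 0.099, adjusted p = 0.538 by the edgeR quasi-likelihood test; two-sided exact permutation test p = 0.314). With the GFP hairpin the level was 84.9, 95.3, 86.3 and 93.4 CPM in PM and 86.8, 76.5, 74.2 and 77.6 CPM in PE, so all 8 libraries with hairpin A lay below all 8 with the control hairpin. MYC stood at 569, 587, 577 and 524 CPM in PM and 258, 263, 246 and 264 CPM in PE, with no overlap. Its difference was log2 1.13, SE 0.062, adjusted p = 1.33e-16 (exact permutation p = 0.0286, the smallest that 70 assignments of 4 against 4 libraries allow). Under hairpin B the MYC difference was smaller, at log2 0.51, and the test of the difference between the hairpins passed (log2 0.62, SE 0.087, adjusted p = 1.14e-05). Against the GFP hairpin, where it was 0.91, the test did not pass (adjusted p = 0.137). In GRCh38.p14, CHD1 lies at chr5:98853985-98929007 and MYC at chr8:127735434-127742951, and counts over the whole gene do not separate an introduced MYC transcript from the cell's own.

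Across all genes, 8309 (39.9%) differed between the lines at an adjusted p under 0.05, of which 4194 (20.1%) were higher and 4115 (19.8%) lower in PM. These genes are called higher or lower here. A change of at least 2-fold was found for 1088 of the higher (5.23% of genes tested) and 1539 of the lower genes (7.39%). The 4 PM libraries lay above all 4 PE libraries for 4006 genes (19.2%) and below them for 3983 genes (19.1%). The counts of each gene list below are to be read against these shares and against a median log2 difference over all genes of 0.0068. Where adding the replicate number to the fit as a block changed a call or moved a count by over 1.5 times, the blocked value stands beside it.

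The genes with the largest rise in PM included a cyclin, a receptor kinase and genes of the extracellular matrix. CCND2, which encodes cyclin D2, a partner of CDK4 and CDK6 in G1, stood at 42.5, 34.9, 43.6 and 42.3 CPM in PM and at 0.175, 0.234, 0.481 and 0.243 CPM in PE (log2 7.23, SE 0.24, adjusted p = 8.31e-23). TIMP3, an inhibitor of metalloproteinases bound to the matrix, was at 32.9, 35.7, 32.8 and 41.98 CPM in PM and 0.661, 0.996, 0.752 and 0.618 CPM in PE (log2 5.59, SE 0.37, adjusted p = 2.22e-10). LAD1, ladinin 1 of the epithelial basement membrane, was at 57.6, 64.8, 56.4 and 49.1 CPM in PM and 0.991, 0.733, 0.511 and 0.300 CPM in PE (log2 6.49, SE 0.28, adjusted p = 2.45e-14). All 3 genes were nearly silent in PE and moderately expressed in each PM library. The ephrin receptor EPHA3 (log2 7.02, adjusted p = 1.42e-14), the dystrobrevin DTNA (log2 6.82, adjusted p = 1.52e-15), the ubiquitin ligase TRIM15 (log2 6.12, adjusted p = 4.51e-05) and VIPR1, a receptor for vasoactive intestinal peptide (log2 5.80, adjusted p = 4.03e-09), were at 4.63 to 11.48 CPM in PM libraries and at most 0.601 CPM in a PE library. TLL1, a tolloid-like metalloproteinase, stood at log2 5.73, FAM184B at 5.52 and the monocarboxylate transporter SLC16A9 at 5.33. No overlap of the lines was a condition for naming the genes with the largest rise or fall. HBA2, a haemoglobin alpha gene with a near-identical neighbour, HBA1, was at 62.2, 78.3, 72.8 and 51.5 CPM in PM and 1.34, 0.615, 2.56 and 1.40 CPM in PE, and its value is uncertain because reads of the pair can be exchanged. NKX1-2, a homeobox gene, was at 5.37, 7.99, 5.84 and 6.12 CPM in PM, and among the PE libraries only replicate 1 held it, at 0.0194 CPM, so no fold is given (adjusted p = 1.07e-10).

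The genes with the largest fall in PM had diverse roles. FABP4, a fatty acid binding protein, stood at 0.262, 0.0738, 0.0539 and 0 CPM in PM and 23.8, 21.4, 17.6 and 32.7 CPM in PE (log2 −8.11, SE 0.71, adjusted p = 1.35e-08). IL1RL1, the receptor for interleukin 33, was at 0.459, 0.393, 0.183 and 0.0326 CPM in PM and 30.2, 27.1, 21.1 and 10.4 CPM in PE (log2 −6.44, SE 0.65, adjusted p = 1.04e-07). PDPN, podoplanin, a membrane glycoprotein of motile cells, was at 0.983, 0.590, 0.658 and 0.782 CPM in PM and 35.9, 31.5, 28.6 and 28.9 CPM in PE (log2 −5.42, SE 0.27, adjusted p = 6.39e-14). No overlap was required here too, and for IL1RL1 replicate 4 of PE was the lowest of its group. COL6A2, a chain of collagen VI, was at 1.18, 1.23, 2.02 and 2.54 CPM in PM and 52.7, 61.3, 92.0 and 121 CPM in PE (log2 −5.53, SE 0.61, adjusted p = 4.11e-07). LAMA4, a laminin alpha chain, was at 1.70, 1.45, 0.906 and 1.07 CPM in PM and 37.4, 40.1, 37.9 and 46.6 CPM in PE (log2 −5.03, SE 0.17, adjusted p = 1.34e-22). Lubricin, encoded by PRG4, fell by 5.97 on the log2 scale. The cortisone reductase HSD11B1 fell by 5.76, LHFPL6 by 5.04, the aquaglyceroporin AQP9 by 5.00, the chemokine-binding receptor ACKR1 by 4.96 and the hyaluronan-binding protein TNFAIP6 by 4.86, with adjusted p-values of at most 7.55e-06 (AQP9). S100A8, a calcium-binding protein of inflammation, is described with its family. FABP4, LAMA4 and ACKR1 are also expressed by adipocytes or endothelium. The summed level of the endothelial markers was 1.92 to 2.51 CPM in PM libraries and 11.9 to 15.2 CPM in PE libraries, with 2 of 4 tested members lower, none higher, and CDH5, which defines the type, at 0 in all 8 libraries. The adipocyte marker PLIN1 summed to 0.492 to 0.787 CPM in PM and 2.95 to 6.07 CPM in PE, and LEP was at 0. Their part in these results was not tested.

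**Figure D1:**
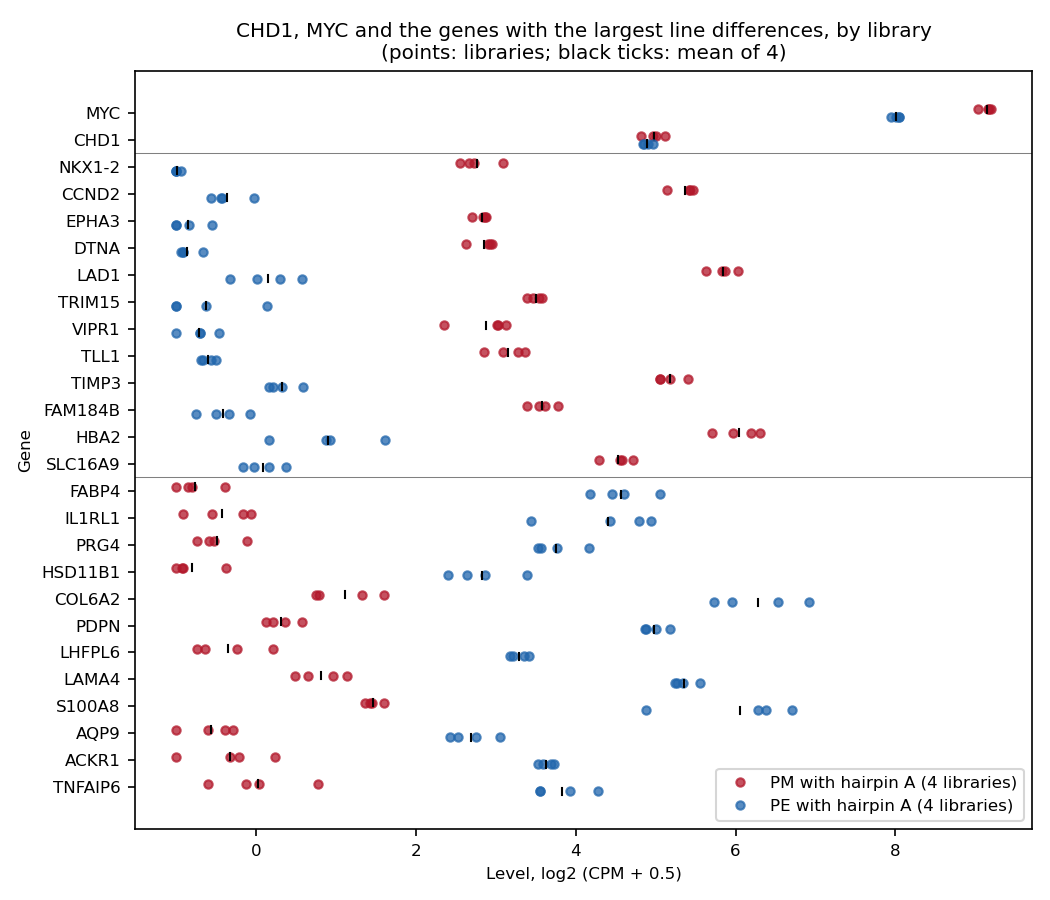
Level in each library of CHD1, MYC and the 12 genes with the largest difference each way under hairpin A, as log2 (CPM + 0.5). Points are libraries (4 of PM in red, 4 of PE in blue) and black ticks their mean. The lines overlap for CHD1 and are apart for MYC. They are apart for the other genes drawn because the choice of genes required it.

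Genes of ribosome assembly were higher in PM almost without exception. Of 40 members of the list of ribosome biogenesis and RNA polymerase I, all of which were tested, 39 were higher and none lower (97.5% called, against 39.9% of all genes), with a median log2 difference of 0.73. The exception, TAF1D, a subunit of the factor that loads RNA polymerase I, was at log2 0.055 (adjusted p = 0.623). E-boxes lie near the start of many of these genes. The exact E-box CACGTG, which reads the same on both strands, was searched in the RefSeq promoters of GRCh38.p14, 250 bases before to 50 after each start. It was found in 12 of the 31 list members with a promoter in the table (38.7%), against 1327 of 13993 tested genes with one (9.48%). The match is a description of the letters and not evidence of binding here. The promoters of the 3 called members with the largest differences among those whose matches all lie in the window are shown from 170 bases before the start to 30 after it, written along the gene's strand, with the E-box in capitals.

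RRP9: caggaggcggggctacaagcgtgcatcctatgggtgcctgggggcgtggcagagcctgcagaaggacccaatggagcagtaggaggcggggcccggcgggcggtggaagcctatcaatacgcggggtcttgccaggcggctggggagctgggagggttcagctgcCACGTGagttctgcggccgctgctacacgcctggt

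PNO1: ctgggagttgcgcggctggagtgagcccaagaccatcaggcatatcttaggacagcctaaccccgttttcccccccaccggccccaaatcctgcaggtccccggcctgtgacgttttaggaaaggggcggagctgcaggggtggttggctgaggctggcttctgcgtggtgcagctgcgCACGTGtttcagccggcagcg

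NOP14: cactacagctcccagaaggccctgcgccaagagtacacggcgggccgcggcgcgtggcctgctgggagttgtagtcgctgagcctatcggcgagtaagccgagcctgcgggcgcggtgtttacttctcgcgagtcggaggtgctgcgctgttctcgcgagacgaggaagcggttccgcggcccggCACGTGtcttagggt

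These windows lie at chr3:51941875-51942074 on the minus strand (RRP9), chr2:68157718-68157917 on the plus strand (PNO1) and chr4:2963377-2963576 on the minus strand (NOP14). The E-box began 5 bases before the start in RRP9 and 9 and 15 bases after it in PNO1 and NOP14. RRP9, which binds the U3 small nucleolar RNA, stood at 155, 164, 153 and 139 CPM in PM and 64.8, 69.7, 57.3 and 57.3 CPM in PE (log2 1.29, SE 0.093, adjusted p = 2.41e-13). PNO1, needed to mature the small subunit, was at 75.02, 77.1, 75.8 and 73.0 CPM in PM and 40.1, 42.3, 37.7 and 39.6 CPM in PE (log2 0.91, SE 0.093, adjusted p = 5.03e-10). NOP14, of the small subunit processome, was at 198, 195, 195 and 207 CPM in PM and 112, 107, 89.4 and 114 CPM in PE (log2 0.91, SE 0.08, adjusted p = 1.8e-11). In each of these genes the lowest PM library lay above the highest PE library. LYAR, a nucleolar protein, had the largest difference of the list (log2 1.30, SE 0.10, adjusted p = 3.86e-11). RRP9 came next, followed by POLR1B, a catalytic subunit of RNA polymerase I (log2 1.15, SE 0.078, adjusted p = 2.63e-14), and RRP12, a factor of ribosome export (log2 1.08, SE 0.094, adjusted p = 4.43e-11). Fibrillarin, encoded by FBL, the methyltransferase of box C/D particles, was at 441, 476, 482 and 473 CPM in PM and 264, 269, 248 and 260.3 CPM in PE (log2 0.85, SE 0.056, adjusted p = 1.48e-14). Summed over the list, PM libraries held 8238 to 8755 CPM and PE libraries 4707 to 5261 CPM.

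Other targets for which MYC is known were higher as well. Of 24 tested classical MYC targets 21 were higher and 1 lower (median log2 0.60). The telomerase gene TERT stood at 5.83, 4.48, 5.64 and 2.44 CPM in PM and 0.330, 0.498, 0.361 and 0.318 CPM in PE (log2 3.62, SE 0.41, adjusted p = 9.03e-09). CAD, the enzyme that starts pyrimidine synthesis, was at 294, 284, 289 and 260.0 CPM in PM and 162, 173, 145 and 151 CPM in PE (log2 0.84, SE 0.069, adjusted p = 4.32e-12). The growth regulator PA2G4 (log2 0.85, adjusted p = 7.85e-12) and the abundant nucleolar genes NCL (log2 0.62, adjusted p = 8.28e-10) and NPM1 (log2 0.49, adjusted p = 1.39e-08) were higher by smaller steps, with the lines apart in each. An E-box was found in the promoters of 9 of 23 members (39.1%). CCND2, named above, is also a member of this list. All 12 chaperonin and mitochondrial chaperone genes tested were higher, with TRAP1, a mitochondrial HSP90, at 1.08 and HSPD1, mitochondrial HSP60, at 0.78 on the log2 scale. Of 29 genes of nucleotide and one-carbon synthesis, 22 were higher and none lower (23 and 2 with the block). Here DHODH, of pyrimidine synthesis, was at log2 1.15, MTHFD1L and PSAT1, of the folate and serine pathways, at 1.00 and 1.00, and PFAS, of purine synthesis, at 0.97.

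The MAX network and polyamine genes did not move as blocks. Of 13 tested members of the MYC and MAX network 7 were higher, MYC among them, and 1 was lower. MXI1, a MAX partner that opposes MYC, was higher in PM (log2 0.96, adjusted p = 5.03e-05), and MXD3, of the same family, was the lower gene (log2 −0.95, adjusted p = 3.77e-07). Among 14 polyamine genes 3 were higher and 5 lower. ODC1, the enzyme that makes putrescine, was at log2 0.41 and SRM, spermidine synthase, at 0.88, while the catabolic enzymes SMOX and SAT1 were at −1.51 and −1.07, all called. Of 25 translation factors 14 were higher and 2 lower. Of 77 cytosolic ribosomal protein genes, whose single values are uncertain because of near-identical pseudogenes, 16 (20.8%) were higher and none lower (1 with the block), the higher share being near that of all genes. Scaled by total counts instead of TMM, 26 were higher. Of 61 nuclear genes of oxidative phosphorylation 32 were higher and none lower (1 with the block), with a median of 0.18.

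**Figure D2:**
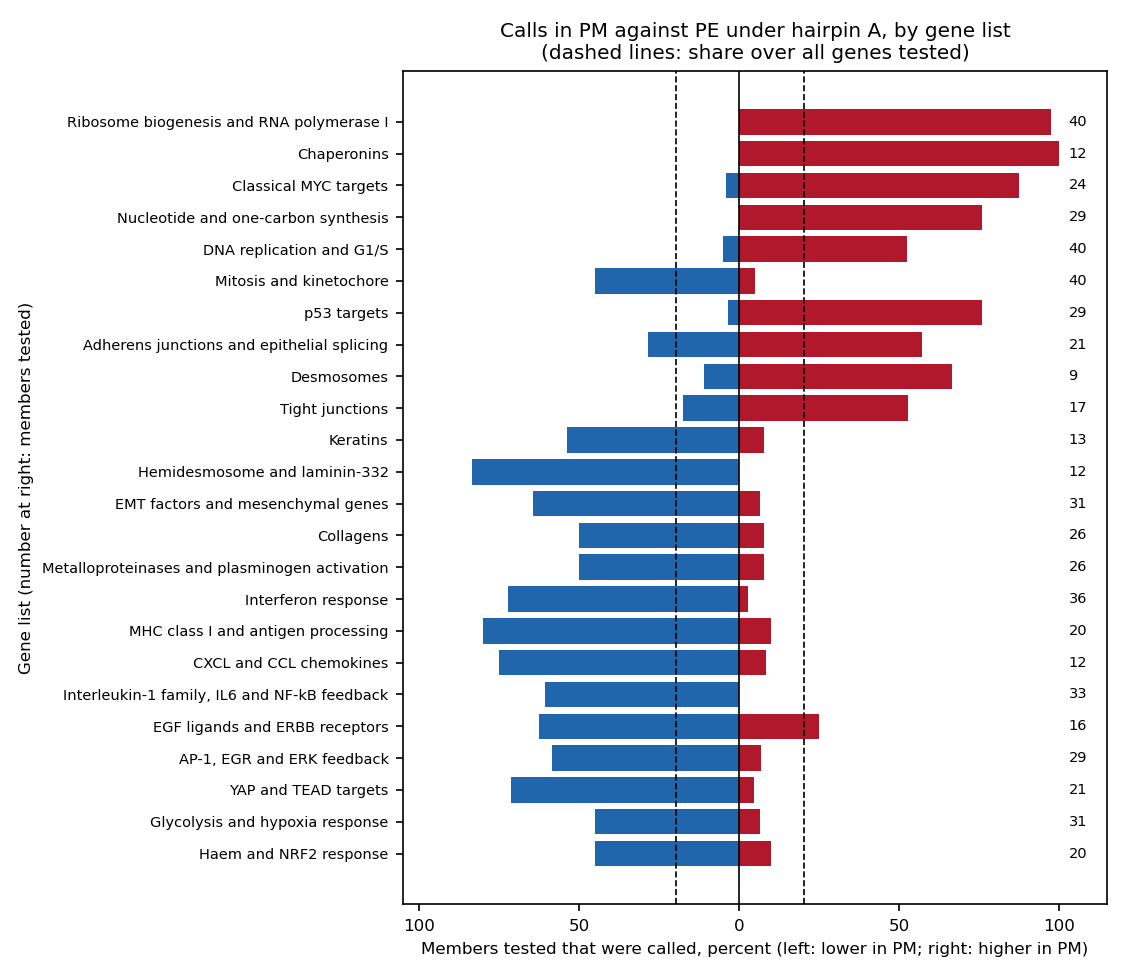
Share of the tested members of 24 gene lists called higher (right, red) or lower (left, blue) in PM than in PE under hairpin A. The dashed lines mark the shares over all 20820 genes, 20.1% and 19.8%, and the number of members tested stands at the right.

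Genes of replication and of mitosis differed in direction. Of 40 genes that copy DNA or drive entry into S phase 21 were higher and 2 lower in PM, with a median of 0.27. MCM2, of the replicative helicase, was at 158, 159, 148 and 153 CPM in PM and 109, 116, 86.1 and 118 CPM in PE (log2 0.52, SE 0.095, adjusted p = 3.83e-05), and CCNE1, cyclin E1, at log2 0.52. Of 40 genes of mitosis and the kinetochore only 2 were higher and 18 lower, with a median of −0.14. ANLN, the anillin of the cleavage furrow, was at 168, 164, 175 and 178 CPM in PM and 274, 261, 292 and 298 CPM in PE (log2 −0.72, SE 0.085, adjusted p = 1.95e-08). KIF20A, a kinesin of the central spindle, fell by 0.64 on the log2 scale (adjusted p = 1.62e-10). The 2 higher genes were MAD2L1, of the spindle checkpoint, and AURKB, the kinase of the chromosomal passenger complex, at 0.40 and 0.37. Among 16 tested G1 cyclins and CDK inhibitors 5 were higher and 7 lower. CDK6 was higher beside CCND2 (log2 0.61, adjusted p = 9.19e-07), while CCND3, cyclin D3 (log2 −0.53, adjusted p = 4.6e-08), and CDKN1C, the inhibitor p57 (log2 −1.70, adjusted p = 0.000355), were lower. Of 34 genes for recombination repair and Fanconi proteins 12 were higher and 1 lower (16 and 2 with the block).

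Targets of p53 were higher in PM. Of 29 listed and tested members 22 were higher and 1 lower, with a median of 0.49. GDF15, a secreted stress cytokine, stood at 90.3, 99.7, 118 and 77.2 CPM in PM and 12.9, 18.1, 20.1 and 17.0 CPM in PE (log2 2.51, SE 0.28, adjusted p = 5.56e-07). FDXR, ferredoxin reductase, was at 76.6, 76.0, 91.9 and 82.3 CPM in PM and 16.5, 23.3, 19.2 and 20.5 CPM in PE (log2 2.04, SE 0.19, adjusted p = 1.67e-08). BBC3, the pro-apoptotic protein PUMA, was at 13.3, 13.4, 18.7 and 14.0 CPM in PM and 4.41, 4.81, 4.24 and 5.28 CPM in PE (log2 1.67, SE 0.17, adjusted p = 4.04e-10). The lines did not overlap in any of these 3 genes. TRIAP1, a small inhibitor of apoptosis, was at 70.8, 76.5, 71.1 and 73.6 CPM in PM and 36.04, 28.5, 30.3 and 30.2 CPM in PE (log2 1.22, SE 0.08, adjusted p = 1.12e-14). CDKN1A, the cell cycle inhibitor p21, was at 473, 511, 503 and 414 CPM in PM and 289, 310.5, 272 and 245 CPM in PE (log2 0.77, SE 0.16, adjusted p = 0.000505). BTG2, an antiproliferative gene, was at log2 1.22, and MDM2, the ubiquitin ligase of p53, at 0.58 (adjusted p = 0.000676). The lower gene was the death receptor TNFRSF10B (log2 −0.46, adjusted p = 4.22e-08). In the BCL2 family, where 4 of 15 genes were higher and 4 lower, the survival genes MCL1 (log2 −0.65, adjusted p = 9.85e-10) and BCL2L1 (log2 −0.82, adjusted p = 1.43e-09) were lower in PM.

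For many p53 targets the difference between the lines was more positive under hairpin A than under the control hairpin. Under the GFP hairpin 5 of the 29 genes were higher and 3 lower in PM (14.1% and 11.4% of all genes; 7 and 6 genes with the block), and under hairpin B 13 were higher and 1 lower (15.7% and 14.5%). The test of the line difference under hairpin A minus that under the GFP hairpin passed for 15 of the 29 members, all positive, against 2.76% of all genes that passed in this direction. Against hairpin B 5 passed, all positive (2.07%), and with the block 10 passed upwards and 1 downwards (3.76% and 4.66% of all genes). TRIAP1 gave log2 0.94, SE 0.12, adjusted p = 1.18e-06 against the GFP hairpin and log2 0.63, SE 0.11, adjusted p = 0.000285 against hairpin B. BBC3 gave log2 1.49, SE 0.24, adjusted p = 8.95e-05 and log2 1.02, SE 0.23, adjusted p = 0.00487. For CDKN1A the test passed against the GFP hairpin (log2 1.02, SE 0.22, adjusted p = 0.00796) and not against hairpin B (log2 0.61, SE 0.22, adjusted p = 0.141), where it passed with the block (log2 0.61, SE 0.124, adjusted p = 0.00226). CDKN1A was at 160.5, 145, 159.7 and 125 CPM in PM and 159.8, 179.8, 197 and 161 CPM in PE with the GFP hairpin, and at 542, 550.4, 631 and 343 and 489, 460.3, 554 and 345 CPM with hairpin B. In either line, all 4 libraries with hairpin A and all 4 with hairpin B were thus above the control libraries of that line. The lines overlapped under hairpin B and were apart under hairpin A.

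**Figure D3:**
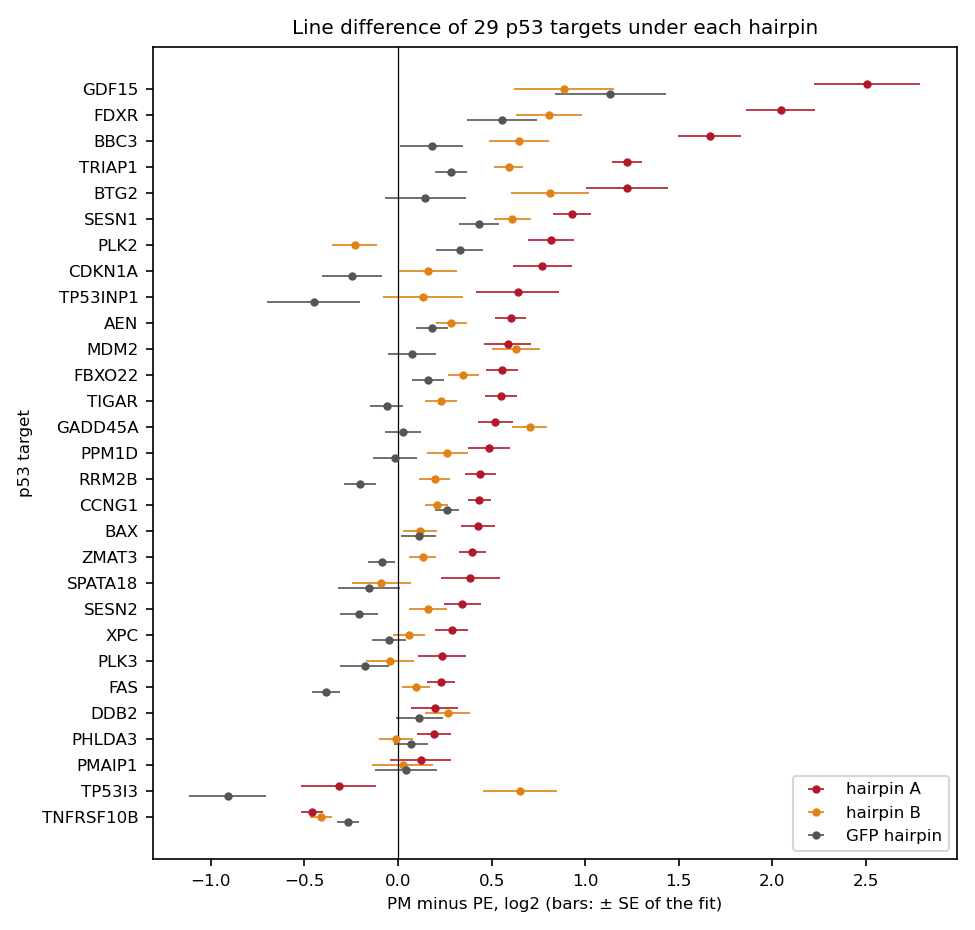
Line difference (PM minus PE, log2, with the SE of the fit as bars) of the 29 p53 targets under hairpin A (red), hairpin B (orange) and the GFP hairpin (grey), ordered by the value under hairpin A. GDF15, FDXR, BBC3 and TRIAP1 lie farther right under hairpin A than under the other hairpins, and TNFRSF10B lies left of 0 under all 3.

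More genes of cell-cell junctions and epithelial splicing were higher than lower in PM, and genes abundant in PE went in both directions. Of 21 tested genes of adherens junctions and epithelial splicing 12 were higher and 6 lower (median 0.96), of 9 desmosomal genes 6 and 1 (0.99; 6 and 2 with the block), and of 17 tight junction genes 9 and 3 (0.93). EPCAM, an adhesion molecule of epithelial surfaces, stood at 101, 109.7, 109 and 107 CPM in PM and 7.10, 9.11, 6.08 and 6.65 CPM in PE (log2 3.89, SE 0.21, adjusted p = 6.38e-12). CDH1, which encodes E-cadherin, was at 18.1, 15.9, 16.6 and 22.4 CPM in PM and 4.08, 1.08, 1.504 and 1.80 CPM in PE (log2 3.06, SE 0.36, adjusted p = 7.81e-07). ESRP1, a splicing factor of epithelial cells, was at 15.3, 12.8, 16.1 and 14.3 CPM in PM and 2.70, 1.79, 1.35 and 1.20 CPM in PE (log2 3.04, SE 0.25, adjusted p = 3.33e-11). The lines were apart in all 3. Its relative ESRP2 (log2 2.09, adjusted p = 1.98e-18), the membrane protease ST14 (log2 2.19, adjusted p = 2.46e-21) and the sorting protein MAL2 (log2 3.09, adjusted p = 1.36e-08) were higher too. ELF3, an epithelial transcription factor, was at 1.93, 2.46, 2.95 and 7.91 CPM in PM, with replicate 4 highest, and at most 0.264 CPM in PE (log2 4.23, SE 0.60, adjusted p = 7.97e-07). In desmosomes the cadherins DSC3 and DSG3 were at log2 2.48 and 2.40 and the plaque protein PKP2 at 2.27, and the tight junction gene CLDN7 was at 2.47, each called. The desmosomal genes DSP and PKP3 had means of 134 and 80.7 CPM in PE and 222 and 160 CPM in PM. Both were higher (log2 0.73, adjusted p = 3.46e-07 and log2 0.99, adjusted p = 1.13e-13). Of the lower genes, CTNNA1 and CTNNB1, the alpha and beta catenins that tie E-cadherin to actin, were at 469, 484, 506 and 490.2 and 245, 243, 248 and 246 CPM in PM and at 610.3, 630.0, 682 and 648 and 322, 318, 313 and 309 CPM in PE (log2 −0.40, SE 0.064, adjusted p = 3.51e-06 and log2 −0.36, SE 0.056, adjusted p = 2.06e-06). KLF5, an epithelial transcription factor, was at 42.7, 46.2, 40.8 and 50.1 CPM in PM and 89.5, 78.3, 75.1 and 79.0 CPM in PE (log2 −0.84, SE 0.091, adjusted p = 2.12e-09). DSG2, the lower desmosomal gene, was at 193, 196, 201 and 217 CPM in PM and 245, 226, 237 and 247 CPM in PE (log2 −0.24, SE 0.075, adjusted p = 0.00851).

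The line difference in several junction genes depended on the hairpin. CDH1 in PE was at 13.8, 11.0, 8.29 and 3.75 CPM with the GFP hairpin and at 0.158, 0.687, 0.251 and 0.138 CPM with hairpin B, while in PM it was at 28.04, 25.2, 24.1 and 26.7 and 26.5, 30.98, 25.8 and 23.9 CPM. The line difference of CDH1 was therefore 6.74 under hairpin B, 3.06 under hairpin A and 1.63 under the GFP hairpin. The test between hairpins A and B passed (log2 −3.67, SE 0.61, adjusted p = 0.000818), and that against the GFP hairpin did not (adjusted p = 0.093). ESRP1 and MAL2 passed both tests, with log2 1.67 and 1.41 against the GFP hairpin and −3.74 and −3.17 against hairpin B, so hairpin A lay between the other 2. EPCAM passed against the GFP hairpin (log2 1.65, SE 0.28, adjusted p = 0.000941) and not against hairpin B (log2 0.65, SE 0.27, adjusted p = 0.214). Of the 21 genes of the adherens and splicing list, 8 passed upwards and 4 downwards against the GFP hairpin (2.76% and 3.9% of all genes). Among the 4 were CTNNA1 (log2 −0.37), CTNNB1 (log2 −0.28) and KLF5 (log2 −0.79).

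KRT14, the KRT6 genes and several S100 genes were lower in PM under hairpin A. Of 13 tested keratins 7 were lower and 1, KRT18 of simple epithelium (log2 0.32, adjusted p = 5.72e-05), higher. KRT14, of basal cells, stood at 0.623, 0.541, 2.27 and 1.69 CPM in PM and 19.3, 16.4, 19.6 and 13.9 CPM in PE (log2 −3.66, SE 0.47, adjusted p = 2.41e-06). KRT6A, a keratin of activated epithelium with near-identical copies, was at log2 −1.51 and its value is uncertain. KRT5, the partner of KRT14, was at 930.3, 957, 971 and 984 CPM in PM and 1505, 1596, 1317 and 868 CPM in PE and did not pass (log2 −0.46, SE 0.20, adjusted p = 0.0733). Replicate 4 of PE was lowest, and without it KRT5 passed at log2 −0.62 (adjusted p = 0.0124). Among 15 tested S100 genes 2 were higher and 7 lower. S100A8 was at 2.23, 2.19, 2.08 and 2.54 CPM in PM and 104, 77.0, 82.5 and 29.01 CPM in PE (log2 −5.03, SE 0.52, adjusted p = 1.44e-07), and its dimer partner S100A9 at 10.9, 7.01, 11.8 and 13.6 CPM in PM and 176, 156, 139 and 61.8 CPM in PE (log2 −3.62, SE 0.42, adjusted p = 6.81e-07). Replicate 4 of PE was again lowest, yet above every PM library. The opposite held for S100A14, of epithelial cells, at 180.3, 181, 201 and 293 CPM in PM and 17.4, 15.9, 13.4 and 10.7 CPM in PE (log2 3.90, SE 0.24, adjusted p = 8.53e-11).

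The line difference in these genes was not the same under hairpin B. Of the 13 keratins 7 were higher and 1 lower (2 with the block) in PM under hairpin B, and 8 passed the test of hairpin A minus hairpin B downwards (2.94% of all genes) and 1 upwards. In PE, KRT14 was at 55.8, 42.8, 24.97 and 34.1 CPM with the GFP hairpin and 0.474, 0.641, 0.640 and 0.360 CPM with hairpin B, and S100A8 was at 169, 121, 90.3 and 88.1 and 17.2, 6.41, 9.96 and 4.55 CPM. In PM, KRT14 was at 4.07, 3.02, 4.30 and 11.0 and 1.00, 1.24, 0.580 and 1.92 CPM and S100A8 at 13.0, 3.39, 6.67 and 4.94 and 8.86, 5.20, 4.88 and 6.76 CPM. The difference between the hairpins was log2 −4.81, SE 0.72, adjusted p = 0.000312 for KRT14 and log2 −4.48, SE 0.67, adjusted p = 0.000327 for S100A8. Neither passed against the GFP hairpin (adjusted p = 0.484 and 0.488).

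Many matrix and mesenchymal genes were lower in PM. Of 31 tested members of the list of EMT factors and mesenchymal genes 20 were lower and 2 higher, with a median of −1.03. FN1, fibronectin, stood at 55.2, 47.9, 53.01 and 74.0 CPM in PM and 365, 346, 544 and 563 CPM in PE (log2 −2.98, SE 0.27, adjusted p = 2.8e-08). SPARC, a matricellular protein, was at 26.6, 22.3, 23.1 and 20.4 CPM in PM and 142, 147, 169.9 and 162 CPM in PE (log2 −2.75, SE 0.12, adjusted p = 8.43e-17). VIM, vimentin, was at 612, 621, 593 and 611 CPM in PM and 1178, 1153, 1265 and 1162 CPM in PE (log2 −0.97, SE 0.063, adjusted p = 1.02e-14). These lines were apart in each gene, by the widest step in FN1. DCN, the proteoglycan decorin (log2 −3.06, adjusted p = 1.95e-05), TNC, tenascin C (log2 −2.35, adjusted p = 1.49e-17), and ZEB2, a repressor of CDH1 (log2 −2.02, adjusted p = 1.57e-09), were lower too. The 2 higher genes were proteoglycans, LUM, lumican, at 1.21, 3.39, 1.25 and 1.95 CPM in PM and 0.622, 0.264, 1.02 and 0.543 CPM in PE (log2 1.67, SE 0.46, adjusted p = 0.00426), and SPOCK1 (log2 1.27, adjusted p = 0.000154). Of 26 tested collagens 13 were lower and 2 higher, with COL6A1 beside COL6A2 at −3.80 and the basement membrane chain COL4A1 at −1.28. COL1A1, of collagen I, was 1 of the 2 higher chains (log2 0.59, SE 0.18, adjusted p = 0.00829), and without replicate 1 of PE it did not pass (adjusted p = 0.0527). The fibroblast marker list, which shares DCN, LUM and COL1A1 with these groups, summed to 12.9 to 18.5 CPM in PM libraries and 29.9 to 42.3 CPM in PE libraries. Of its 5 tested members DCN was lower and LUM and COL1A1 higher, and COL1A2 had no count in PM and at most 0.128 CPM in PE. Its part in these results was not tested.

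The hemidesmosome list was mostly lower as well, and protease inhibitors went in both directions. Of 26 tested genes of metalloproteinases and plasminogen activation 13 were lower (50.0%), 2 higher and 11 not called. MMP14, a membrane collagenase, was at 7.18, 6.96, 7.88 and 7.62 CPM in PM and 77.3, 74.1, 74.7 and 78.3 CPM in PE (log2 −3.36, SE 0.15, adjusted p = 1.66e-15). TIMP1, a secreted inhibitor, was at 396, 440.0, 367 and 447 CPM in PM and 1659, 1611, 1696 and 1923 CPM in PE (log2 −2.06, SE 0.087, adjusted p = 1.78e-17), while TIMP3, above, was among the largest rises. SERPINE2, protease nexin 1, was at log2 −2.80. Of 12 genes of the hemidesmosome and its laminin, 10 were lower and none higher. LAMB3, its beta chain, was at 203, 224, 258 and 232 CPM in PM and 829, 845, 970.2 and 778 CPM in PE (log2 −1.90, SE 0.12, adjusted p = 2.69e-11), and the integrin ITGA3 fell by 1.41 on the log2 scale. TIMP1 passed both tests between hairpins, with log2 −0.83, SE 0.12, adjusted p = 4.08e-05 against the GFP hairpin and log2 −1.90, SE 0.12, adjusted p = 1.23e-11 against hairpin B.

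Many inflammatory genes were lower in PM. Of 33 tested genes of the interleukin 1 family, IL6 and NF-kB feedback 20 were lower and none higher (median −0.81). Of 12 tested chemokines 9 were lower and 1 higher (median −2.46). The lines were apart in 6 of the 9. The others, CXCL5, CCL5 and CCL26, had means of at most 0.682 CPM in either line, so their log2 values are uncertain. IL1A, an alarmin, stood at 7.01, 7.92, 6.77 and 4.33 CPM in PM and 105, 99.2, 74.8 and 49.9 CPM in PE (log2 −3.65, SE 0.29, adjusted p = 3.09e-09). IL1B, its secreted relative, was at 8.98, 7.97, 5.22 and 7.23 CPM in PM and 134, 154, 91.8 and 75.05 CPM in PE (log2 −3.98, SE 0.29, adjusted p = 1.18e-09). IL6 was at 4.00, 3.34, 2.04 and 0.977 CPM in PM and 52.8, 56.6, 32.2 and 23.54 CPM in PE (log2 −4.02, SE 0.54, adjusted p = 5.36e-06). Replicate 4 of PE was lowest in all 3 and still above every PM library. The neutrophil attractants CXCL1 and CXCL8 fell by 3.19 and 2.58 on the log2 scale. TNFAIP3 and NFKBIA, which both restrain NF-kB and are induced by it, fell by 2.18 and 0.83. The complement genes CFB (log2 −4.04, adjusted p = 2.92e-08) and C1R (log2 −4.01, adjusted p = 2.01e-09) were also lower. The immune markers summed to 37.95 to 43.9 CPM in PM libraries and 68.4 to 79.9 CPM in PE libraries, with CD68 and CD14 lower among 4 tested of 12 listed and LYZ and TYROBP at 0. Their part in these results was not tested.

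For some chemokines and interleukins the line difference was not the same under the other hairpins. Against the GFP hairpin 5 of the 12 chemokines and 9 of the 33 interleukin and NF-kB genes passed downwards (3.9% of all genes), and none of the first and 1 of the second upwards (2.76%). With the block the second list had 13 downwards and 2 upwards. Against hairpin B 4 chemokines passed downwards and 1 upwards, and 8 interleukin and NF-kB genes downwards and none upwards (2.94% and 2.07% of all genes). Of the second list 14 passed downwards with the block (4.66% of all genes). CCL20, which attracts dendritic cells and lymphocytes, was at 28.1, 35.95, 26.6 and 17.0 CPM in PM and 235, 230.3, 254 and 145 CPM in PE under hairpin A (log2 −3.00, SE 0.25, adjusted p = 8.21e-09). With the GFP hairpin it was at 336, 428, 371 and 239 CPM in PM and 433, 542, 599 and 462 CPM in PE, so the highest PM library lay just below the lowest PE library. The test of the difference gave log2 −2.43, SE 0.33, adjusted p = 0.00016. For IL1A it gave log2 −1.55, SE 0.37, adjusted p = 0.0139 against the GFP hairpin and log2 −1.68, SE 0.37, adjusted p = 0.00988 against hairpin B. IL1B and IL6 did not pass against the GFP hairpin (adjusted p = 0.651 and 0.52), and IL6 passed with the block (log2 −0.85, SE 0.202, adjusted p = 0.00719).

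**Figure D4:**
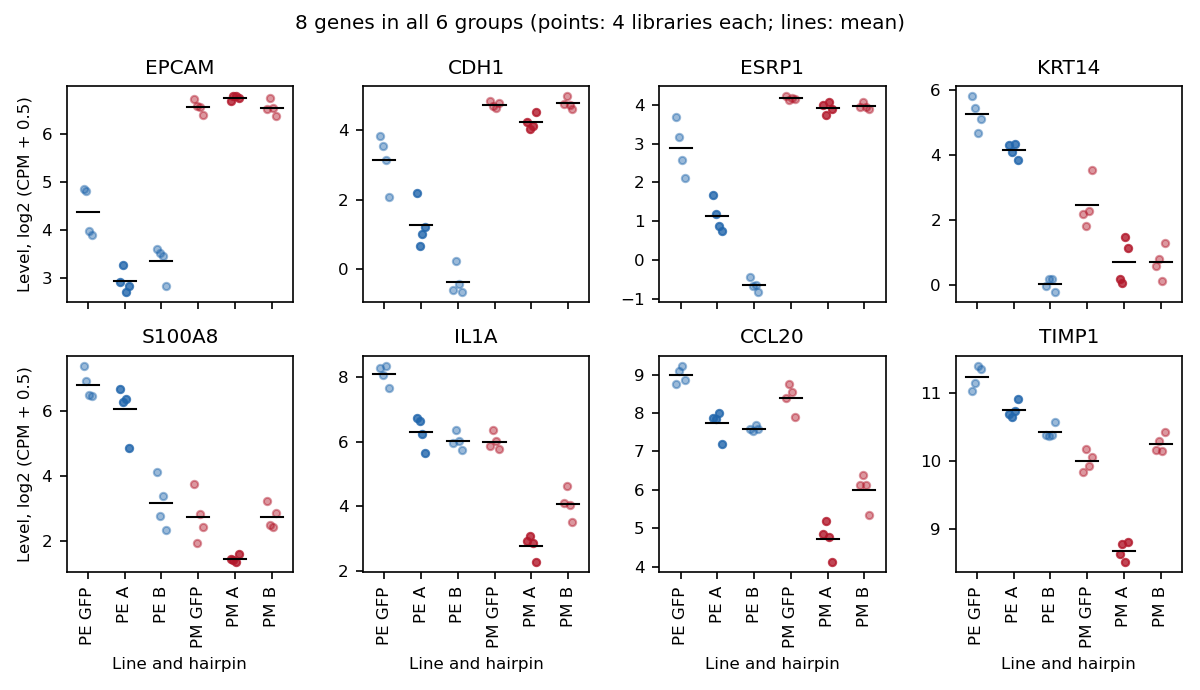
Level of 8 genes in all 24 libraries as log2 (CPM + 0.5), by line and hairpin (points: 4 libraries per group, horizontal lines: mean; PE in blue, PM in red, hairpin A in darker colour). The means of CDH1 and ESRP1 in PE fall from the GFP hairpin through hairpin A to hairpin B, while their PM libraries stay between 12.8 and 30.98 CPM, KRT14 and S100A8 are far lower in PE with hairpin B than with hairpin A, and IL1A, CCL20 and TIMP1 are lowest in PM with hairpin A.

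Many interferon-response and antigen presentation genes were lower in PM. Of 36 tested interferon-response genes 26 were lower and 1 higher (median −0.95). The core of the interferon-stimulated response element, searched as GAAA, any 2 bases and GAAA again, on both strands, was found in the promoters of 19 of the 29 members with one in the table (65.5%), against 433 of 13993 tested genes (3.09%). Of these 19 members 12 were lower and the other 7 did not pass the test, a lower share not above the 26 of 36 of the whole list. As for the E-box, the match describes the letters and is not evidence of binding here. Whether the element goes with the fall was not tested. The promoters of the 3 called members with the largest falls among those with a match and at least 5 CPM in a line are shown over the same window, with matches on either strand in capitals.

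IFIT3: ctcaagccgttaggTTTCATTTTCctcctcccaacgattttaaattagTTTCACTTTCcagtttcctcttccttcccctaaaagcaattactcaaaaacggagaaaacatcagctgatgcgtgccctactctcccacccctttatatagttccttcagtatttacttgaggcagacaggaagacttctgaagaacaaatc

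DDX60: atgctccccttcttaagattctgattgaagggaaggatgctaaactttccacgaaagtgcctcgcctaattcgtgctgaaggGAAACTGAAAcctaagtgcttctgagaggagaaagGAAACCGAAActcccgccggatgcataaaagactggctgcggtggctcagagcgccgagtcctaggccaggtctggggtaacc

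IFI6: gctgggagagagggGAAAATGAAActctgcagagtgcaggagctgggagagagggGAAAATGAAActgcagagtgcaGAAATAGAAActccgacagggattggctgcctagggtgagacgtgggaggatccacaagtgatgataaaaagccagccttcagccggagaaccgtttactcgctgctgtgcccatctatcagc

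They lie at chr10:89327827-89328026 on the plus strand (IFIT3), chr4:168318723-168318922 on the minus strand (DDX60) and chr1:27672163-27672362 on the minus strand (IFI6), with 2, 2 and 3 matches. IFIT3, which binds foreign RNA with its relatives, stood at 7.34, 7.23, 5.83 and 7.07 CPM in PM and 21.4, 18.1, 21.4 and 21.2 CPM in PE (log2 −1.59, SE 0.13, adjusted p = 1.82e-12). DDX60, a helicase of antiviral defence, was at 3.67, 4.06, 5.03 and 6.45 CPM in PM and 12.1, 12.5, 14.7 and 15.0 CPM in PE (log2 −1.498, SE 0.15, adjusted p = 1.94e-10). IFI6, a mitochondrial survival protein, was at 2.00, 1.65, 4.14 and 4.49 CPM in PM and 5.85, 6.18, 7.16 and 7.72 CPM in PE (log2 −1.12, SE 0.22, adjusted p = 6.52e-05). The lines were apart in all 3. OASL, of the oligoadenylate synthetase family, fell by 3.64 on the log2 scale. The higher gene was USP18, a protease that removes ISG15 and restrains the receptor, at 15.6, 15.4, 14.9 and 10.5 CPM in PM and 7.27, 8.44, 6.14 and 6.24 CPM in PE (log2 1.01, SE 0.15, adjusted p = 1.52e-06). Of 20 tested genes of MHC class I and antigen processing 16 were lower and 2 higher. B2M, the light chain, was at 548, 569, 550.0 and 624 CPM in PM and 953, 888, 1008 and 968 CPM in PE (log2 −0.74, SE 0.065, adjusted p = 1.96e-11), and PSMB9, of the immunoproteasome, at log2 −2.58. The 2 higher genes were PSMB10, also of the immunoproteasome (log2 0.50, adjusted p = 0.000316), and the peptide transporter gene TAP2 (log2 0.23, adjusted p = 0.0153, lines overlapping). Its partner TAP1 and the regulator NLRC5 did not pass (log2 0.082 and 0.097, adjusted p = 0.697 and 0.615). HLA-B was at log2 −1.16, an uncertain value because HLA genes are variable and similar to each other. Against the GFP hairpin 8 interferon genes passed downwards and 1 upwards, among them IFIT3 (log2 −0.71) and USP18 (log2 0.97), against 3.9% and 2.76% of all genes. Of the 20 MHC class I genes 1 passed each way, a share near that of all genes, and with the block 5 passed downwards (6.39% of all genes) and 1 upwards. Against hairpin B 2 interferon genes passed each way and 2 MHC class I genes upwards and none downwards (2.07% of all genes upwards and 2.94% downwards). With the block these were 2 upwards and 6 downwards for interferon genes and 5 and 1 for MHC class I genes (3.76% and 4.66% of all genes).

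The lists of EGF ligands and ERBB receptors, of AP-1, EGR and ERK feedback, and of YAP and TEAD targets were mostly lower. A link between these lists was not tested. EGF was present in the medium of all cultures. Of 16 tested EGF ligands and ERBB receptors 10 were lower and 4 higher. EREG, epiregulin, stood at 6.98, 7.87, 4.86 and 6.25 CPM in PM and 80.0, 80.2, 82.9 and 80.6 CPM in PE (log2 −3.66, SE 0.19, adjusted p = 3.33e-12), and AREG, amphiregulin, at 155, 164, 155 and 230.4 CPM in PM and 482, 488, 551 and 600.4 CPM in PE (log2 −1.59, SE 0.16, adjusted p = 5.7e-08). The receptor EGFR fell by 0.47, and the ErbB4 ligand NRG4 rose by 2.00 on the log2 scale. Of 29 genes of AP-1, EGR and ERK feedback 17 were lower and 2 higher. DUSP6, the phosphatase of ERK, was at 21.7, 21.6, 21.5 and 18.7 CPM in PM and 90.5, 95.01, 63.5 and 76.4 CPM in PE (log2 −1.96, SE 0.16, adjusted p = 1e-09), whereas the feedback inhibitor SPRY1 was higher (log2 1.46, adjusted p = 9.44e-09). Of 21 YAP and TEAD targets 15 were lower and 1 higher, the factor TEAD4 (log2 0.82, adjusted p = 1.69e-09; 16 and 2 with the block). Without the block the other 5 did not pass. Among them were the well-known targets CCN1 (log2 −0.23, adjusted p = 0.534) and CCN2 (log2 −0.0014, adjusted p = 0.998), in which the lines overlapped. Against the GFP hairpin EREG (log2 −1.71, SE 0.25, adjusted p = 0.000248) and AREG (log2 −1.19, SE 0.22, adjusted p = 0.00177) passed, and DUSP6 did not (adjusted p = 0.243). Among 28 tested genes of activin, TGF-beta and BMP signalling 14 were lower and 2 higher (4 with the block), with the activin-binding protein FSTL1 at 60.0, 63.1, 66.2 and 52.99 CPM in PM and 231, 235, 253 and 221 CPM in PE (log2 −1.95, SE 0.076, adjusted p = 1.23e-20). The 2 higher genes were GDF15, described above, and INHBE, an inhibin subunit. BMP6, a ligand of the family outside the list, was higher as well (log2 4.15, SE 0.39, adjusted p = 1.26e-10).

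Metabolic lists were more mixed. Of 31 genes of glycolysis and the hypoxia response 14 were lower and 2 higher (median −0.33; 20 and 5 with the block). VEGFA, the vascular growth factor, was at 123, 122, 155 and 157 CPM in PM and 271, 273, 324 and 303 CPM in PE (log2 −1.07, SE 0.12, adjusted p = 2.39e-07), and NDRG1, a hypoxia gene, at log2 −1.76. PFKM, a muscle phosphofructokinase, was higher (log2 0.83, adjusted p = 4.07e-13). In the list of haem and NRF2 response 9 of 20 genes were lower and 2 higher, with the aldo-keto reductase AKR1C1 (log2 −2.70, adjusted p = 7.3e-08, with close copies) and the quinone reductase NQO1 (log2 −0.88, adjusted p = 1.5e-05) lower. Among 28 tested genes of cholesterol and fatty acid synthesis 7 were higher and 9 lower. FASN, fatty acid synthase, was at 1399.7, 1297, 1442 and 1242 CPM in PM and 743, 847, 752 and 711 CPM in PE (log2 0.82, SE 0.068, adjusted p = 4.74e-12). Of 25 ATF4 and amino acid stress genes 11 were higher and 7 lower, with the leucine transporter SLC7A5 at log2 1.37.

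Notch and Wnt genes were called in both directions, and chromatin remodellers about as often as all genes. Of 33 tested Notch and Wnt genes 11 were higher and 13 lower. NRARP, a Notch-induced inhibitor of the pathway, was at 16.0, 15.8, 18.5 and 12.6 CPM in PM and 2.31, 2.55, 2.56 and 2.64 CPM in PE (log2 2.65, SE 0.17, adjusted p = 1.16e-14), and the ligand JAG2 at log2 1.33. The Wnt antagonist DKK1 was at 26.8, 30.5, 18.2 and 24.3 CPM in PM and 79.4, 82.1, 106 and 128 CPM in PE (log2 −1.99, SE 0.26, adjusted p = 2.64e-06). HES2, a repressor of the HES family, was higher (log2 3.19, SE 0.32, adjusted p = 3.51e-10). Of 23 CHD and ISWI remodellers 6 (26.1%) were higher and 5 (21.7%) lower, near the 20.1% and 19.8% of all genes. CHD7, a relative of CHD1, was at 56.2, 49.1, 56.9 and 50.8 CPM in PM and 21.3, 23.2, 22.6 and 23.7 CPM in PE (log2 1.23, SE 0.12, adjusted p = 6.4e-10), and SMARCA1, an ISWI ATPase, at 3.57, 3.05, 3.74 and 3.22 CPM in PM and 15.7, 17.8, 17.6 and 16.4 CPM in PE (log2 −2.30, SE 0.14, adjusted p = 3.8e-15). For SMARCA1 the line difference was larger than under the GFP hairpin (log2 −1.49, SE 0.21, adjusted p = 9.39e-06) and not shown to differ from that under hairpin B (log2 0.33, SE 0.19, adjusted p = 0.406).

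Many genes that separated the lines under hairpin A also did so under the other hairpins, and these comparisons share no library. Under the GFP hairpin 5309 genes were called (25.5%) and under hairpin B 6274 (30.1%). Of the 4194 genes higher under hairpin A, 2429 were higher with the GFP hairpin as well, which is 57.9% of the first list and 82.5% of the second list. Of the 4115 lower genes, 1969 were lower with the GFP hairpin (47.8% and 83.3%). With hairpin B the shared genes were 2618 higher (62.4% and 80.2%) and 2470 lower (60.0% and 82.1%). Opposite calls were rare, with 11 and 17 genes against the GFP hairpin and 13 and 27 against hairpin B. The median size of the log2 difference over all genes was 0.452 under hairpin A, 0.324 under the GFP hairpin and 0.341 under hairpin B. With a minimum of 2-fold, 2.11% of genes were higher and 4.4% lower under the GFP hairpin, and 3.63% and 3.82% under hairpin B. The 4 PM libraries lay above all PE libraries for 14.8% and below them for 10.1% of genes with the GFP hairpin, and for 15.4% and 14.2% with hairpin B.

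The difference of the line differences was tested in each gene, and both tests share the 8 libraries with hairpin A. Against the GFP hairpin 1386 genes passed (6.66%), 575 upwards (2.76%) and 811 downwards (3.9%). With the replicate number as a block 2184 passed. Scaling by total counts instead of TMM gave a split of 838 upwards and 646 downwards, so the balance of directions depends on the scaling. Of the 575 genes, 295 were higher in PM under both hairpins and 213 were called higher under hairpin A and not under the GFP hairpin. Of the 811 genes, 376 were lower under both and 368 called lower under hairpin A and not under the GFP hairpin. Against hairpin B 1044 genes passed (5.01%), 431 upwards and 613 downwards, and 1753 with the replicate number as a block. At a minimum of 2-fold, 0.937% of genes passed upwards and 0.821% downwards against the GFP hairpin, and 0.451% and 1.27% against hairpin B.

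**Figure D5:**
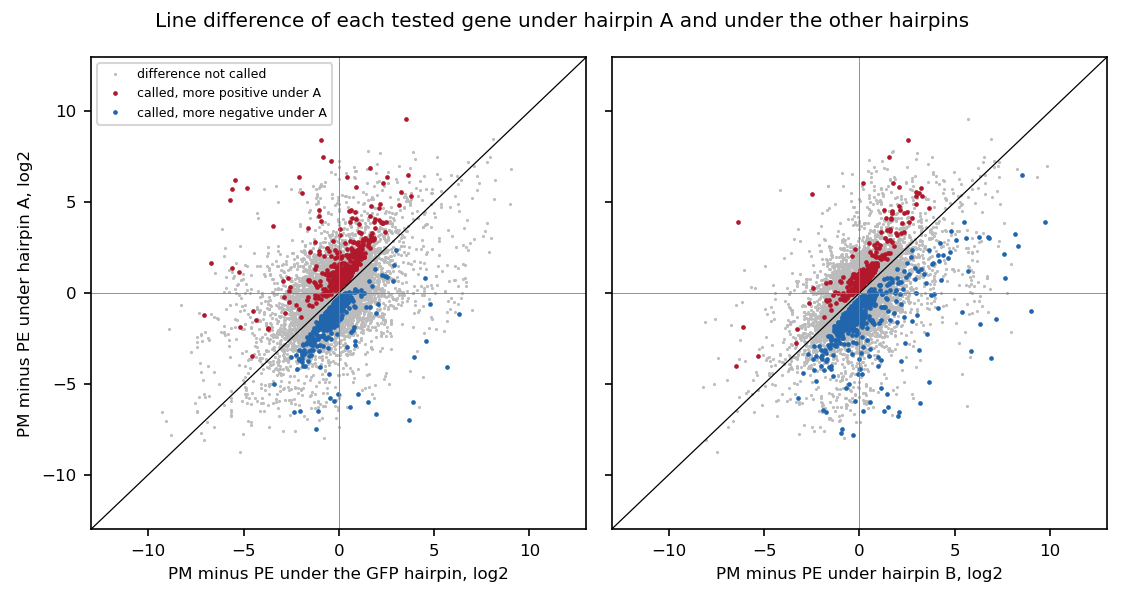
Line difference (PM minus PE, log2) of each tested gene under hairpin A (vertical axis) against that under the GFP hairpin (left) and hairpin B (right). The diagonal marks equal differences, red points are genes whose difference was more positive under hairpin A at an adjusted p under 0.05 (575 left, 431 right), blue points those more negative (811 left, 613 right), and grey points all other genes.

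The genes with the most positive difference from the other hairpins had diverse roles. ABCA12, a lipid transporter of the epidermis, was at 36.02, 35.02, 38.9 and 38.1 CPM in PM and 2.82, 2.17, 1.11 and 0.656 CPM in PE under hairpin A (log2 4.45, SE 0.41, adjusted p = 3.43e-08), and the line difference was 0.85 under the GFP hairpin (log2 3.60, SE 0.57, adjusted p = 0.000612). GRIN2C, a glutamate receptor subunit, was at 4.69, 5.68, 7.84 and 6.16 CPM in PM and 0.369, 0.264, 0.241 and 0.131 CPM in PE and passed against both other hairpins (log2 3.97, SE 0.68, adjusted p = 0.000258 against GFP and log2 3.30, SE 0.59, adjusted p = 0.000371 against B). BMP6 likewise passed both, at log2 3.44 and 2.77. LAD1 passed upwards against the GFP hairpin (log2 2.86) and downwards against hairpin B (log2 −2.03). LY6D, a surface protein of keratinocytes, was at 2.49, 3.39, 4.43 and 7.07 CPM in PM and 0.214, 0.117, 0.120 and 0.150 CPM in PE, and passed upwards against hairpin B (log2 2.70). EEF1A2, an elongation factor, was at 4.20, 4.52, 3.87 and 6.03 CPM in PM and 3.81, 2.198, 3.52 and 5.77 CPM in PE and did not differ detectably between the lines under hairpin A (adjusted p = 0.638), yet it passed against hairpin B, where its line difference was −2.45 (log2 2.73, SE 0.57, adjusted p = 0.00327).

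In the other direction, RARRES1, a retinoid-responsive membrane protein, was at 1.38, 1.62, 1.83 and 0.814 CPM in PM and 7.91, 6.51, 6.496 and 6.78 CPM in PE under hairpin A, and its line difference was −2.26 there and −0.09 under the GFP hairpin (log2 −2.17, SE 0.37, adjusted p = 0.000226). SAMSN1, an adaptor protein, was at 0.361, 0.443, 0.183 and 0.293 CPM in PM and 3.71, 3.52, 5.38 and 4.12 CPM in PE (log2 −2.14, SE 0.47, adjusted p = 0.00359 against the GFP hairpin). CFB and C1R passed against both other hairpins, with −2.28 and −2.12 against GFP and −2.54 and −1.99 against B on the log2 scale. SERPINB3, a squamous cell antigen with a near-identical neighbour, was at 0.0655, 0.0738, 0 and 0 CPM in PM and 4.00, 3.60, 1.80 and 1.25 CPM in PE, and its value is uncertain. IL1RL1 and TP53I11 were among the largest against hairpin B, at −4.52 and −4.23. TP53I11 was at 0.623, 0.246, 0.0323 and 0.554 CPM in PM and 5.52, 5.71, 5.47 and 6.41 CPM in PE under hairpin A (log2 −4.20, SE 0.52, adjusted p = 3.32e-07), and its line difference under hairpin B was 0.039.

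The differing genes were spread over the autosomes and X. The share called higher in PM was 16.2% to 26.5% per chromosome, with chromosomes 16 and 22 at 26.5% each, and the share called lower 13.1% to 23.3%, with X highest. The median log2 difference per chromosome lay between −0.059 and 0.12.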

How the data were processed

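RNA was sequenced from 24 cultures in 6 groups of 4. The deposited table holds raw counts per gene, whole numbers made by the authors. The submitters' processing notes name FastQC, Trim Galore 0.4.0, HISAT2 2.2.1, featureCounts and GRCh38/hg38. No source used here gives the annotation release or the strand setting of the counting, so overlapping and antisense genes cannot be told apart. The table lists 59251 genes, 17236 of them without a count in the 24 libraries. Of all genes 57842 matched a current symbol of the RefSeq table, 367 an older one and 1042 none.

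Genes were kept by edgeR's filterByExpr (20820), scaled by TMM and fitted with the robust quasi-likelihood model of edgeR 4.0.16 (R 4.3.3) over all 6 groups without a replicate block. P-values are two-sided and adjusted over all genes tested by Benjamini-Hochberg, with a threshold of 0.05. Standard errors are approximations, taken as the absolute log2 difference over the root of the test statistic F. The procedure was tested on simulated data. Alternatives were DESeq2 1.42.0 (size factors and Wald test), limma 3.58.1 (voom), library sizes alone, other filters, the compared groups alone, each library left out and the replicate block. List counts with limma-voom and without replicate 4 of PM were added after seeing the data. Same-numbered libraries of PM and PE under hairpin A deviated together (correlation 0.154 to 0.332 over 10173 genes, 4 of 4 over 0.1). For differently numbered libraries the correlation was −0.333 to 0.246, so the ranges overlapped. Between the lines under hairpin B they did not overlap (0.223 to 0.480 against −0.314 to 0.085). Nor did they for hairpin A and the GFP hairpin in PE (0.236 to 0.392 against −0.279 to 0.169). In the other pairs of groups examined the ranges overlapped. In every pair examined, all same-numbered correlations were over 0.1. The numbers may thus pair the libraries by these data, and the labels do not say so.

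Named are CHD1, MYC, the 12 protein-coding genes with the largest differences each way (at least 5 CPM in a line, called, no overlap), 6 and 4 each way for the differences from the GFP hairpin and hairpin B, and up to 4 called members per list with those that give the list its name. Members named beyond this, for a known role, were chosen after their values were seen. Some members of the lists are not reported by name here. The members and the 54 gene lists (1315 entries, 1314 found in the table) were chosen with earlier results of these data known.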

Additional observations from a re-analysis of the deposited data

Results flagged for a closer look

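Among the values of 155 named genes and 4 library measures in the groups of 4 libraries with hairpin A, 318 groups were examined for a library that stood far from the other 3, and 16 had one. Chance alone gives about 1 in 20 such groups. Of the 16, 10 were in PM, 6 of them in replicate 4, and 6 in PE. In PM the distant library was the highest at 0.269 CPM for HSD11B1 (replicate 3), 18.7 CPM for BBC3 (replicate 3), 7.91 CPM for ELF3 (replicate 4), 48.7 CPM for SPOCK1 (replicate 4), 230.4 CPM for AREG (replicate 4) and 202 CPM for JAG2 (replicate 4). In PM the distant library was the lowest at 34.9 CPM for CCND2 (replicate 2), 5.68 CPM for DTNA (replicate 2), 10.5 CPM for USP18 (replicate 4) and 18.7 CPM for DUSP6 (replicate 4). In PE the distant library was the highest at 0.0194 CPM for NKX1-2 (replicate 1) and 0.131 CPM for DTNA (replicate 4). In PE the distant library was the lowest at 66.4 CPM for C1R (replicate 4), 68.1 CPM for RRP12 (replicate 3), 654 CPM for MCL1 (replicate 3) and 18.1 CPM for IFIT3 (replicate 2).

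For 70 named genes the difference between the lines under hairpin A was not the same as under the GFP hairpin at an adjusted p under 0.05 (edgeR quasi-likelihood test), and for 67 not the same as under hairpin B. Values are the log2 line difference under hairpin A minus that under the other hairpin, and both sets share the libraries with hairpin A. Against the GFP hairpin the positive values were NKX1-2 6.04, LAD1 2.86, SLC16A9 1.56, GRIN2C 3.97, ABCA12 3.60, BMP6 3.44, HES2 3.13, LY6D 3.09 and PA2G4 0.33. Others on the positive side were CAD 0.35, RRP9 0.61, POLR1B 0.61, MTHFD1L 0.41, PSAT1 0.56, TRAP1 0.42, CDKN1A 1.02, CDK6 0.68 and GDF15 1.37. Positive as well were FDXR 1.49, BBC3 1.49, TRIAP1 0.94, BTG2 1.08, ELF3 2.58, EPCAM 1.65, MAL2 1.41, ESRP1 1.67 and ESRP2 1.18. Still positive were ST14 1.14, PKP2 1.44, S100A14 1.44, USP18 0.97, TEAD4 0.55, PFKM 0.37, NRARP 1.38 and JAG2 0.44. The negative values against the GFP hairpin were LAMA4 −1.63, SERPINB3 −4.49, CCL20 −2.43, CFB −2.28, RARRES1 −2.17, SAMSN1 −2.14, C1R −2.12, SAT1 −0.82 and ANLN −0.52. Others on the negative side were KIF20A −0.32, CCND3 −0.48, MCL1 −0.44, BCL2L1 −0.56, KRT6A −1.06, ZEB2 −1.25, VIM −0.34, TIMP1 −0.83 and LAMB3 −0.74. Negative as well were ITGA3 −0.48, FSTL1 −1.12, IL1A −1.55, CXCL1 −1.62, CXCL8 −1.10, TNFAIP3 −0.95, NFKBIA −0.43, OASL −1.59 and IFIT3 −0.71. Still negative were DDX60 −0.88, EREG −1.71, AREG −1.19, SMARCA1 −1.49, DKK1 −1.43, CTNNA1 −0.37, CTNNB1 −0.28 and KLF5 −0.79. The value of NKX1-2 depends on the prior count, because the gene was almost without counts in PE, and is no measure of size.

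Against hairpin B the positive values were MYC 0.62, VIPR1 2.56, HBA2 2.38, SLC16A9 2.03, GRIN2C 3.30, ABCA12 1.93, BMP6 2.77, EEF1A2 2.73 and LY6D 2.70. Further positive genes were POLR1B 0.38, MTHFD1L 0.32, CDK6 0.48, GDF15 1.62, FDXR 1.24, BBC3 1.02, TRIAP1 0.63, ESRP2 0.91 and ST14 0.58. A second set above 0 was CLDN7 1.46, SPARC 0.55, SPOCK1 1.25, USP18 1.00, NRG4 1.14, PFKM 0.34, SLC7A5 0.84, FASN 0.40 and NRARP 1.88. The negative values against hairpin B were LAD1 −2.03, IL1RL1 −4.52, HSD11B1 −2.55, S100A8 −4.48, TNFAIP6 −2.56, SERPINB3 −6.72, CCL20 −1.45, CFB −2.54 and SAMSN1 −2.01. Further negative genes were C1R −1.99, KRT14 −4.81, TP53I11 −4.23, SAT1 −0.81, CDKN1C −1.84, MCL1 −0.83, MAL2 −3.17, CDH1 −3.67 and ESRP1 −3.74. A second set below 0 was KRT6A −2.16, KRT5 −1.13, S100A14 −1.59, S100A9 −3.58, DCN −3.61, TNC −0.83, ZEB2 −0.83, VIM −0.37 and MMP14 −0.68. A later set below 0 was TIMP1 −1.90, SERPINE2 −1.33, LAMB3 −0.80, FSTL1 −0.75, IL1A −1.68, CXCL1 −1.33, CXCL8 −1.08, NFKBIA −0.66 and OASL −1.91. A last set below 0 was EREG −1.24, AREG −1.17, DUSP6 −1.57 and KLF5 −1.39. The values of HBA2, KRT6A and SERPINB3 are uncertain because of near-identical copies.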

How the results depend on the processing

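The number of genes called between PM and PE under hairpin A stayed within 1.5 times of 8309 under other scalings, tests, filters and the replicate block. Under these settings 92.5% to 100% of the calls that could be tested remained. With each library of hairpin A left out in turn, 89.7% to 93.2% remained. A minimum of 2-fold left 2627 genes under hairpin A, 1356 under the GFP hairpin, 1551 under hairpin B, and 366 and 358 for the differences from the GFP hairpin and from hairpin B. With the replicate number as a block, 2184 and 1753 genes passed those tests of difference, and no other total moved by over 1.5 times. In those tests 17 and 21 of 155 named genes gained a call and none lost one; those the report speaks of stand there, as do list counts moved by over 1.5 times. The block changed no other call of a named gene. Leaving out each library in turn gave 7595 to 8108 genes under hairpin A, 4436 to 4963 under the GFP hairpin, 5394 to 6006 under hairpin B, 1031 to 1457 for the difference from the GFP hairpin and 783 to 1098 for that from hairpin B. The scalings moved the median log2 difference by −0.0088 (DESeq2 size factors) and 0.022 (library sizes). Of 153 named genes other than CHD1 and MYC, 150 kept direction and side of the threshold under all settings tried. TAF1D, not called, moved to 0.0938 without replicate 3 and turned to −0.028 without replicate 4 of PM, and KRT5 passed with the DESeq2 Wald test (adjusted p = 0.0353), limma-voom (0.048) and without replicate 4 of PE. COL1A1 was lost without replicate 1 of PE (0.0527). The cause was not tested. Genes near the filter are limited by depth, most in the library with the lowest total of the series, 4.14 M counts, which is a PE library with the GFP hairpin.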
